A study of Drosophila melanogaster with 8 samples.

Results

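The genes hth (homothorax), exd (extradenticle), tsh (teashirt) and tio (tiptop) act in the proximal parts of insect appendages, and open chromatin at these 4 genes is described here across wing discs, leg discs and salivary glands. Regions were taken as belonging to a gene when their centre lay in its RefSeq gene body or within 15 kb of it. Of 13008 regions in the authors' comparison tables, 37 met this rule: 28 at hth, 3 at exd, 4 at tsh and 2 at tio. All 37 are accounted for below. The peak lists gave 68 peaks in EcR-RNAi wing, 95 in wild type (WT) wing, 63 in WT leg and 10 in WT salivary gland by the same rule.

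Hth and Exd are homeodomain proteins of the TALE class that bind DNA together and serve as cofactors of Hox proteins. Exd is made widely but enters the nucleus where Hth is present, so hth sets where the pair can act. Tsh and Tio are related zinc finger proteins, and tsh marks the trunk and the proximal domain of discs. In the leg disc the hth and tsh domain gives rise to the proximal segments, with dac and Dll acting farther out; in the wing disc it lies in hinge and body wall territory, outside the wing pouch.

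The signal is FAIRE-seq, which recovers DNA of low nucleosome occupancy after crosslinking and phenol extraction. The 8 libraries came from female wandering larvae at -6 h relative to puparium formation, raised at 25 °C, with at least 40 dissected tissues each. They form 4 groups of 2 libraries. In the EcR-RNAi wing group, a yw stock carried Vg-GAL4, UAS-Flp and a tubulin flip-out cassette (Tub>>CD2>>GAL4), with UAS-GFP over UAS-EcR-RNAi (line 104); the flip-out keeps GAL4 on in cells that once had Vg-GAL4 activity and in their descendants. Its WT wing reference is labelled wild type at every chromosome and carries none of these transgenes. The WT leg and WT salivary gland groups have the same wild type label, although gland peak names bear the prefix EcRmimic and disc peak names OR, so stock may differ along with tissue. Whole tissues were used, and a lower value in one of them cannot tell fewer cells with an open region from less opening per cell. No label ties the libraries of a group to separate crosses or cultures, so the p-values rest on library-to-library spread alone, and that spread may be technical.

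Marker genes were read to check the tissue labels. A region counts as called where the adjusted p is under 0.05 and the log2 fold change is at least 1 in size. Wing disc markers (vg, nub, bs, salr, ap) had 21 of 54 tested regions called toward WT wing and 1 toward WT leg, and leg disc markers (Sp1, Lim1, dac, disco-r, btd) 0 in WT wing and 22 of 52 in WT leg (authors' deposited table). Gland markers (fkh, CrebA, Sgs4, Sgs3, Pgant4) had 2 of 32 regions called toward WT wing and 15 toward gland (authors' deposited table). Between WT wing and WT leg, 0 regions of the myoblast markers (37 tested), the haemocyte markers (10) and the neuron markers (16) were called in the authors' deposited DESeq2 table, where an unadjusted p under 0.05 gives 3 toward wing and 2 toward leg for myoblast and 0 for the others; 2 of 24 tracheal marker regions were called toward WT wing and 1 toward WT leg. Libraries have no counts of their own in these files, so depth per library is unknown, and group levels quoted below were reconstructed from the mean normalized count over all libraries and the deposited folds.

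Across the 4 genes, hth, tsh and tio had lower reconstructed levels in salivary gland than in either disc, and exd did not. For WT leg this was weaker at tsh, where 1 of 4 regions was called over gland, against 21 of 28 at hth and 2 of 2 at tio. By the authors' deposited tables, 32 of the 37 regions were called higher in WT wing than in gland and 24 higher in WT leg than in gland. With no fold threshold the counts were 33 and 33, against 40.5% and 40.5% of all regions. None was called higher in gland in either comparison (DESeq2; at an unadjusted p under 0.05 there was 1 in each, at exd). Over all regions 21.1% were called toward WT wing and 12.7% toward gland in the first comparison. In the second, 22.6% were called toward WT leg and 13.3% toward gland. Both discs were called higher at 23 of the 37 regions (62.2%), against 2133 of all 13008 (16.4%). A further 9 passed for wing alone, 1 for leg alone and 4 for neither disc. Both comparisons use the same gland libraries, and at the 37 regions the wing fold over gland equals the sum of the wing over leg and leg over gland folds, so they are not independent. Markers of other cells in the discs moved over gland as well: myoblast regions (twi, Him, Mef2, htl, zfh1) were called 16 toward WT wing and 3 toward gland of 37, and tracheal regions (trh, vvl, knrl) 15 and 0 of 24, while haemocyte regions (srp, gcm, Hml) gave 2 and 2 of 10 and neuron regions (elav, nSyb, futsch) 1 and 5 of 19 (authors' deposited table). The part of these cells in the values of the 4 genes was not tested. Only 4 of the 5 myoblast genes and 2 of the 3 haemocyte genes had a region in the window, so the rest add nothing to these counts.

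The members of hth, tsh and tio were also set beside regions of like peak status, a class chosen after the values were seen and not independent of the folds. Among the 5754 other regions with a disc peak and no gland peak, 2417 were called toward WT wing and 38 toward gland, with a median log2 fold of 0.86 in the authors' deposited table. At the 34 regions of hth, tsh and tio, all of that kind, 32 were called toward WT wing and 0 toward gland, with a median of 1.92 (authors' deposited table). Among regions of that kind with at least the median count, 1711 of 2949 were called higher in WT wing, members included, and 21 of 21 members were (authors' deposited table). That count is a mean over all libraries, most of them from discs. The count filter is therefore not independent of the folds either, and these shares are description only.

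**Figure D1:**
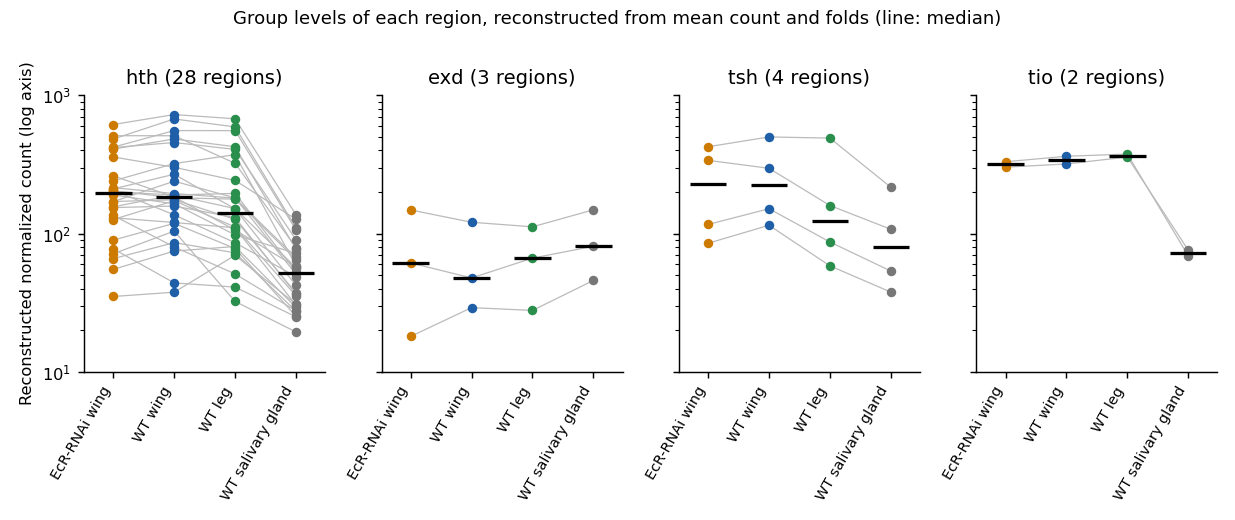
Reconstructed normalized count of each region (log axis) in EcR-RNAi wing, WT wing, WT leg and WT salivary gland, one panel per gene; grey lines join the 4 values of a region and black bars are medians. All 28 hth regions, all 4 tsh regions and both tio regions are lowest in gland. The 3 exd regions have their highest value there, but at the one nearest exd gland and EcR-RNAi wing are nearly equal, both at 148.

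The hth gene spans 132008 bp of chromosome 3R (dm6, 10507561 to 10639568), and 24 of its 28 regions had their centre in the gene body. The RefSeq gene table used here gives no strand or exons, so distances are counted from the lower-numbered gene end, and exon, intron and untranslated positions were not assigned. Reconstructed levels over the 28 regions had a median of 195 in EcR-RNAi wing (35.0 to 615), 183 in WT wing (37.6 to 726), 141 in WT leg (32.3 to 677) and 51.8 in gland (19.4 to 137). Gland was lowest at all 28 regions. WT wing was highest at 14, EcR-RNAi wing at 11 and WT leg at 3. These orders take no account of error. At 81.4 kb, for one, EcR-RNAi wing ranked first although both wing groups were at 510 (log2 of WT over EcR-RNAi wing -0.0005, SE 0.13). These regions were broad, with a median width of 688 bp against 509.5 bp over all regions, and none lay within 500 bp of any gene end, against 39.9% of all regions.

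Against gland, 26 of the 28 hth regions were called higher in WT wing and 21 higher in WT leg in the authors' deposited tables. Their median log2 fold was 2.05 for WT wing over gland and 1.64 for WT leg over gland, against 0.18 and 0.17 over all regions (authors' deposited tables). The largest wing value lay 81.4 kb into the gene (10588319 to 10589641), where the reconstructed level was 510 in WT wing and 79.2 in gland. That region was 6.44-fold higher in WT wing, a log2 fold of 2.69 with an SE of 0.16 in the authors' deposited table (DESeq2, adjusted p = 9.16e-63). The largest leg value lay 11.0 kb into the gene (10518045 to 10518987), at a level of 372 in WT leg and 58.6 in gland; the authors' deposited table gives log2 2.67 (SE 0.19, adjusted p = 2.16e-40). The region with the highest reconstructed levels of the locus, also its widest at 1751 bp, lay 79.6 kb into the gene (10586324 to 10588074). Levels are not divided by width, and this region had 726 in WT wing, 677 in WT leg and 137 in gland. Wing exceeded gland there by 5.30-fold and leg by 4.94-fold, each with a log2 SE of 0.18 (authors' deposited tables).

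The rise over gland ran along the whole hth gene and was smaller in most regions outside it. Inside the gene body 23 of 24 regions were called higher in WT wing than gland, with a median log2 fold of 2.17, and outside it 3 of 4, with a median of 1.36 (authors' deposited table). The 60 regions in the 250 kb on either side of the hth window had a median log2 fold of 0.32 for WT wing over gland, with 18 called toward wing and 5 toward gland (authors' deposited table). No library measured DNA copy number in the polytene gland, and its part in these folds was not tested. The regions not called for wing were a short one at 19.5 kb (10526873 to 10527169), at log2 0.82 (SE 0.32) for wing and 0.72 (SE 0.33) for leg, and one beyond the gene at 141.8 kb, at 0.29 (SE 0.31) for wing, where leg was called at 1.17 (SE 0.30; authors' deposited tables).

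**Figure D2:**
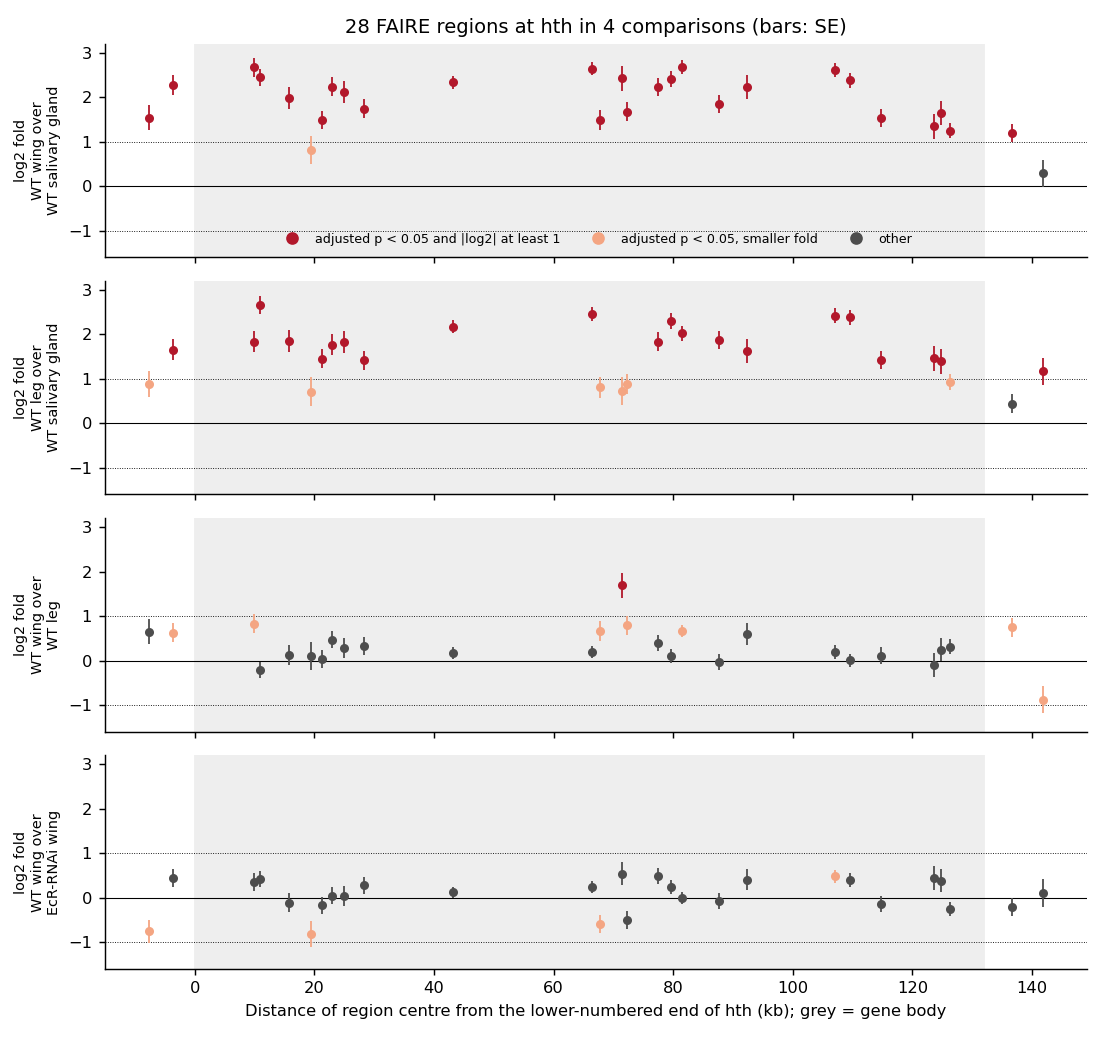
Log2 fold change with its SE at the 28 hth regions, by distance from the lower-numbered gene end (kb), in 4 comparisons; grey shading is the gene body, dotted lines mark a log2 fold of 1 and -1, and colours mark the call. Folds over gland stay high across the gene, folds between wing and leg lie mostly near 0 with 1 call at 71.4 kb, and no region is called between WT wing and EcR-RNAi wing.

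Wing and leg discs differed at hth in a few regions, most of them higher in wing. By the authors' deposited table, a single region (1 of 28) was called toward WT wing and 0 toward WT leg (DESeq2), where 2.04% and 2.21% of all tested regions are called. An unadjusted p under 0.05 was reached by 11 hth regions toward wing and 1 toward leg (39.3% and 3.57%), against 8.13% and 8.64% of all regions (authors' deposited table). With no fold threshold 7 favoured WT wing and 1 favoured WT leg, against 5.05% and 5.25% of all tested regions (authors' deposited table). The call lay 71.4 kb into the gene, at 10578734 to 10579106, a region of 373 bp. Its reconstructed level was 71.4 in EcR-RNAi wing, 104 in WT wing, 32.3 in WT leg and 19.4 in gland. WT wing exceeded WT leg there by 3.23-fold, log2 1.69 with an SE of 0.28 in the authors' deposited table (adjusted p = 3.79e-07). It carried a peak in both wing lists and none in the leg or gland lists.

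Regions around that call leaned the same way. The neighbours at 67.7 kb and 72.3 kb were higher in WT wing than in WT leg by log2 0.67 (SE 0.22, adjusted p = 0.0325) and 0.80 (SE 0.22, adjusted p = 0.0046), and the one at 81.4 kb by 0.66 (SE 0.14, adjusted p = 8.99e-05), in the authors' deposited table. Neither neighbour at 67.7 kb or 72.3 kb had a leg peak. Between them and the 81.4 kb region, the broad region at 79.6 kb gave 0.10 (SE 0.17, adjusted p = 0.92), so it did not differ beyond its error (authors' deposited table). The regions at 66.4 kb and 77.5 kb did not pass an adjusted p of 0.05 either. They gave 0.19 (SE 0.13, adjusted p = 0.613) and 0.40 (SE 0.19, adjusted p = 0.244) in the authors' deposited DESeq2 table. Near the other end, the region at 9.83 kb was higher in WT wing by 0.83 (SE 0.20, adjusted p = 0.00117), as was one 3.62 kb outside the gene by 0.63 (SE 0.21, adjusted p = 0.0412; authors' deposited table). The last pair lay beyond the gene on its higher-numbered side. At 136.6 kb, inside the antisense gene asRNA:CR44018, WT wing was higher by 0.75 (SE 0.21, adjusted p = 0.0072), and at 141.8 kb WT leg was higher, wing over leg being log2 -0.89 with an SE of 0.31 (adjusted p = 0.0445; authors' deposited table). The 141.8 kb region had a peak in the leg list alone.

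EcR-RNAi wing and WT wing gave 0 called regions at hth in the authors' deposited DESeq2 table, where positive folds are higher in WT wing. Over all tested regions 0.789% are called higher in EcR-RNAi wing and 1.24% in WT wing. An unadjusted p under 0.05 was reached by 4 hth regions toward EcR-RNAi wing and 6 toward WT wing (14.3% and 21.4%), near the 11.3% and 20.5% of all regions (authors' deposited table). With no fold threshold 3 hth regions were higher in EcR-RNAi wing and 1 in WT wing, where 5.38% and 10.4% of all tested regions pass (authors' deposited table). The 3 lay 7.62 kb outside the gene, at 19.5 kb and at 67.7 kb. At the first the reconstructed level was 135 in EcR-RNAi wing and 80.0 in WT wing, and the authors' deposited table gives WT over EcR-RNAi as log2 -0.76 (SE 0.25, adjusted p = 0.0293). The second had 77.5 in EcR-RNAi wing and 43.9 in WT wing, at -0.82 (SE 0.30, adjusted p = 0.0451), and it had a peak in the EcR-RNAi wing list alone (authors' deposited table). At 67.7 kb the levels were 205 in EcR-RNAi wing and 137 in WT wing, at -0.59 (SE 0.20, adjusted p = 0.0259, authors' deposited table). None of these 3 regions had a leg or gland peak. The region higher in WT wing, at 107.1 kb (10614086 to 10615180), had 483 in EcR-RNAi wing and 675 in WT wing, and the authors' deposited table gives WT over EcR-RNAi as log2 0.48 (SE 0.15, adjusted p = 0.0135). Centring folds on all regions turned the sign of 2 hth values and 1 tio value in this comparison.

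Peak lists gave the same outline for hth from merged libraries, with no replicate check. There were 51 peaks in EcR-RNAi wing, 60 in WT wing, 38 in WT leg and 0 in gland. The disc lists differ in size (18464, 29283 and 26754 peaks in that order), so these counts do not rank the discs. Of these, 23 in EcR-RNAi wing, 30 in WT wing and 11 in WT leg fall outside the compared regions and have no fold. Of the 38 leg peaks, 36 touched a WT wing peak, and of the 60 WT wing peaks 34 touched a leg peak. Of the 51 EcR-RNAi wing peaks 42 touched a WT wing peak, and of the 60 WT wing peaks 44 touched an EcR-RNAi wing peak. The same shares over whole lists were not computed, and a longer list is touched more readily. These overlaps are therefore description only and are not read as a trait of hth. Fold enrichment, the authors' own value per peak, is compared here only within a list. The highest WT wing peak of the locus was that at 81.4 kb, with 9.91, at the 99.2nd percentile of its list, and the same region held the highest EcR-RNAi wing peak, with 8.06, at the 99.3rd percentile. In leg the highest was at 79.6 kb, with 12.1, at the 98.6th percentile.

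The gland list alone carries a fragment size tag in its name, whose part in the absence of gland peaks was not tested. It holds 16840 peaks against 18464 to 29283 in the disc lists. Of 13946 protein-coding genes, 1737 (12.5%) had no gland peak in the same window. Windows with as many wing peaks as that of hth were rare: 6 genes had at least 60, with a median of 19 gland peaks, and hth was the only one of the 6 with none. These gene sets were chosen after the values were seen, windows of neighbouring genes share peaks, and no test was made.

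**Figure D3:**
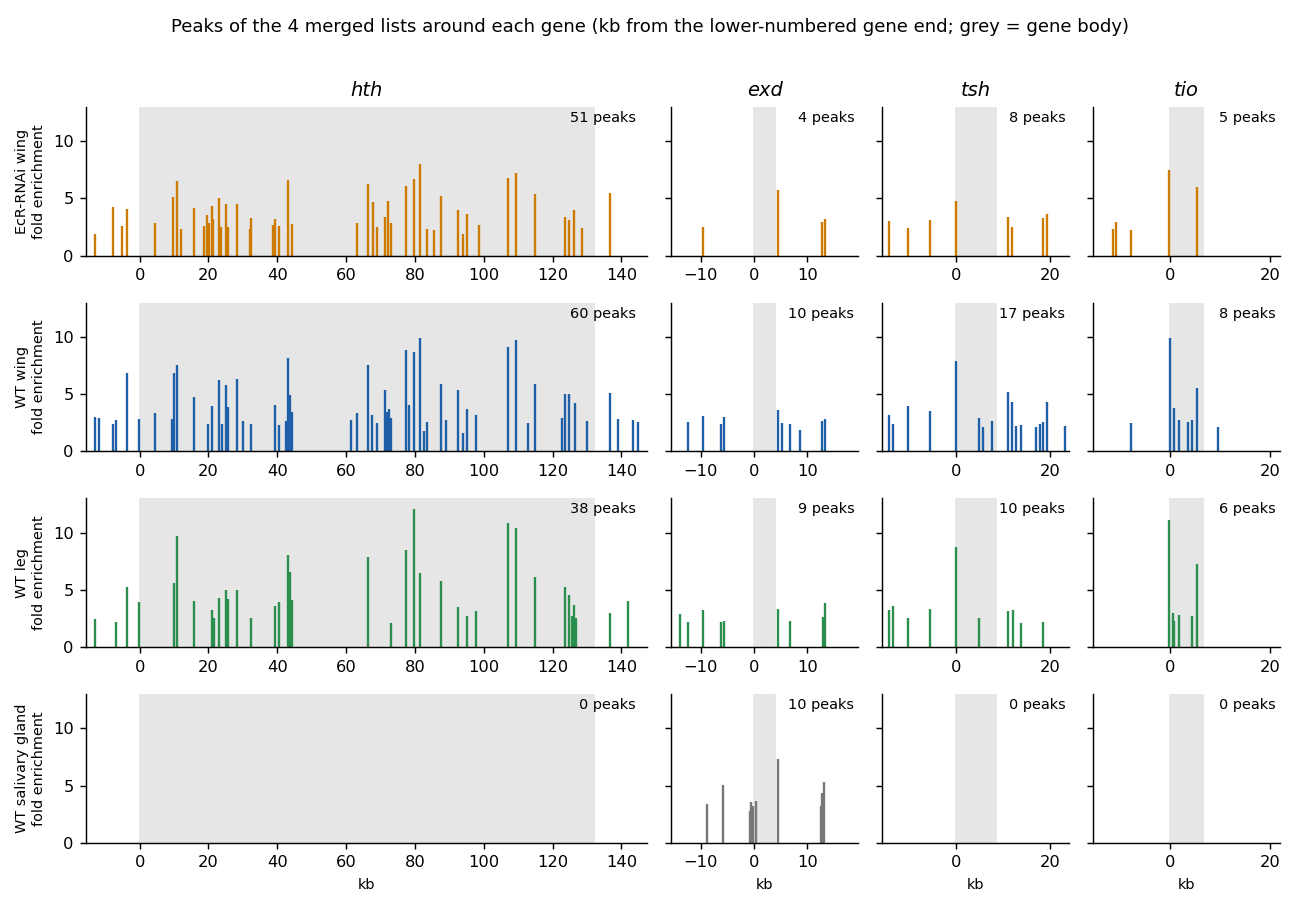
Peaks of the 4 merged lists within 15 kb of each gene, by distance from the lower-numbered gene end (kb), with height the authors' fold enrichment, which is comparable within a row only; grey shading is the gene body. The gland row is empty at hth, tsh and tio and holds 10 peaks at exd.

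At exd, the partner of hth, no region was called in any comparison, and none belonged to exd by position. The gene is short, 4042 bp of chromosome X (15992468 to 15996509), in a stretch dense with genes. The 3 regions within its window had centres inside ND-20, CG8939 and vap, and each lay within 500 bp of an end of one of those genes. The one nearest exd, at 15996817 to 15997295, was 0.547 kb beyond exd and 40 bp from an end of CG8939, so its signal cannot be given to one of them. Its reconstructed level was 148 in EcR-RNAi wing, 121 in WT wing, 112 in WT leg and 148 in gland. Neither disc differed from gland there beyond the error, the authors' deposited tables giving log2 -0.30 for wing (SE 0.20, adjusted p = 0.182) and -0.41 for leg (SE 0.21, adjusted p = 0.0801). The sign of the wing value at this region, and of the leg value at the vap region, turned when folds were centred on regions near gene ends (0.01 and 0.03). Centred instead on all regions, the 3 wing values passed an adjusted p of 0.05, at 0.0236 in ND-20, 0.0282 in CG8939 and 0.00255 in vap, as did 2 of the 3 leg values, at 0.0192 in ND-20 and 0.0107 in CG8939, so at CG8939 both discs then fell below gland.

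The region in vap, at 16005676 to 16005938, was lower in WT wing than in gland, at log2 -0.76 in the authors' deposited table (SE 0.29, adjusted p = 0.0169), short of the fold threshold. Reconstructed levels were 61.2 in EcR-RNAi wing, 47.7 in WT wing, 66.4 in WT leg and 80.9 in gland. The smallest region, 145 bp in ND-20, had 18.02, 29.1, 27.8 and 45.7 in that order and no adjusted p between wing and leg. Between wing and leg the other pair gave 0.11 (SE 0.22) and -0.48 (SE 0.31), and between WT and EcR-RNAi wing the 3 regions gave 0.69 (SE 0.37), -0.30 (SE 0.21) and -0.36 (SE 0.30), with the smallest adjusted p at 0.188 (authors' deposited tables). Neither comparison had an exd region at an unadjusted p under 0.05 (0 of 3). Over all regions 8.13% toward wing and 8.64% toward leg reach it, and 20.5% toward WT wing and 11.3% toward EcR-RNAi wing.

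The peak lists placed 4 EcR-RNAi wing, 10 WT wing, 9 WT leg and 10 gland peaks around exd. Of all these, 1 gland peak had its centre in the exd gene body, at 15992855 to 15992917, with a fold enrichment of 3.64. Another, at 15992276 to 15992363, lay just outside the lower-numbered end of exd. No disc peak had its centre in the gene body. The highest gland peak of the window, with 7.33, lay at the CG8939 boundary, at the 97.4th percentile of its list. The disc peaks there stood at the 88.2nd percentile in EcR-RNAi wing, the 69.2nd in WT wing and the 61.3rd in WT leg.

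The related genes tsh and tio lie 182.197 kb apart on chromosome 2L, tsh at 21828593 to 21837011 and tio at 22019208 to 22025734. Each had a broad region over its lower-numbered end. At tsh this region (21827953 to 21829199) had reconstructed levels of 425 in EcR-RNAi wing, 500 in WT wing, 490 in WT leg and 216 in gland. Wing and leg were each called higher than gland, wing by log2 1.21 (SE 0.16, adjusted p = 2.92e-13) and leg by 1.18 (SE 0.16, adjusted p = 2.16e-12; authors' deposited tables). WT wing and WT leg did not differ there beyond the error, at 0.03 (SE 0.16, adjusted p = 0.979, authors' deposited table). It was the only one of the 4 tsh regions called higher in WT leg than gland; the other 3 were called for WT wing alone.

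Those 3 regions lie beyond the higher-numbered end of tsh, in no listed gene, and all were more open in wing than in leg. The widest, at 21846839 to 21848073, 10.4 kb beyond the gene, had levels of 338 in EcR-RNAi wing, 296 in WT wing, 159 in WT leg and 107 in gland. WT wing exceeded WT leg by 1.86-fold, log2 0.89 with an SE of 0.18 in the authors' deposited table (adjusted p = 1.9e-05). The others, 2.67 kb and 3.51 kb beyond the gene, gave 0.98 (SE 0.26, adjusted p = 0.00382) and 0.80 (SE 0.25, adjusted p = 0.0209) in the authors' deposited table. All 3 fell short of the fold threshold, so 0 tsh regions were called between WT wing and WT leg (DESeq2; 3 and 0 at an unadjusted p under 0.05). Over all tested regions 2.04% and 2.21% are called, and 8.13% and 8.64% of all regions reach that unadjusted p. The tsh region 2.67 kb beyond the gene passed the fold threshold under both centrings, at log2 1.01 centred on all regions (adjusted p = 0.00174) and 1.01 centred near gene ends (adjusted p = 0.00164). Over gland their log2 folds ran from 1.47 (SE 0.17) to 1.61 (SE 0.26) in WT wing and from 0.57 (SE 0.19) to 0.70 (SE 0.26) in WT leg (authors' deposited tables).

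At tio the discs were alike and gland was far lower. The region at its lower-numbered end (22018666 to 22019452) had reconstructed levels of 331 in EcR-RNAi wing, 362 in WT wing, 376 in WT leg and 69.1 in gland. WT wing exceeded gland by 5.24-fold (log2 2.39, SE 0.17, adjusted p = 2.96e-41) and WT leg by 5.44-fold (log2 2.44, SE 0.17, adjusted p = 3.91e-42) in the authors' deposited tables. Its peak stood at the 98.4th percentile of fold enrichment in EcR-RNAi wing, the 99.2nd in WT wing and the 97.4th in WT leg. The region inside tio (22024240 to 22024893) had 302 in EcR-RNAi wing, 319 in WT wing, 358 in WT leg and 75.9 in gland, where wing exceeded gland by log2 2.07 (SE 0.18) and leg by 2.24 (SE 0.18; authors' deposited tables). Between WT wing and WT leg the values were -0.05 (SE 0.15, adjusted p = 0.966) and -0.17 (SE 0.16, adjusted p = 0.786) in the authors' deposited table, so the order of the discs is not settled at either.

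No tsh or tio region was called between EcR-RNAi wing and WT wing (authors' deposited DESeq2 table; 0 at an unadjusted p under 0.05). Over all tested regions only 0.789% are called toward EcR-RNAi wing and 1.24% toward WT wing. At an unadjusted p under 0.05 the shares of all regions are 11.3% and 20.5%. With so few regions, the absence of calls is not read as a result about tsh or tio. Log2 folds of WT over EcR-RNAi wing ran from -0.19 (SE 0.16) to 0.43 (SE 0.24) at tsh, and were 0.13 (SE 0.15) and 0.08 (SE 0.16) at tio (authors' deposited table).

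**Figure D4:**
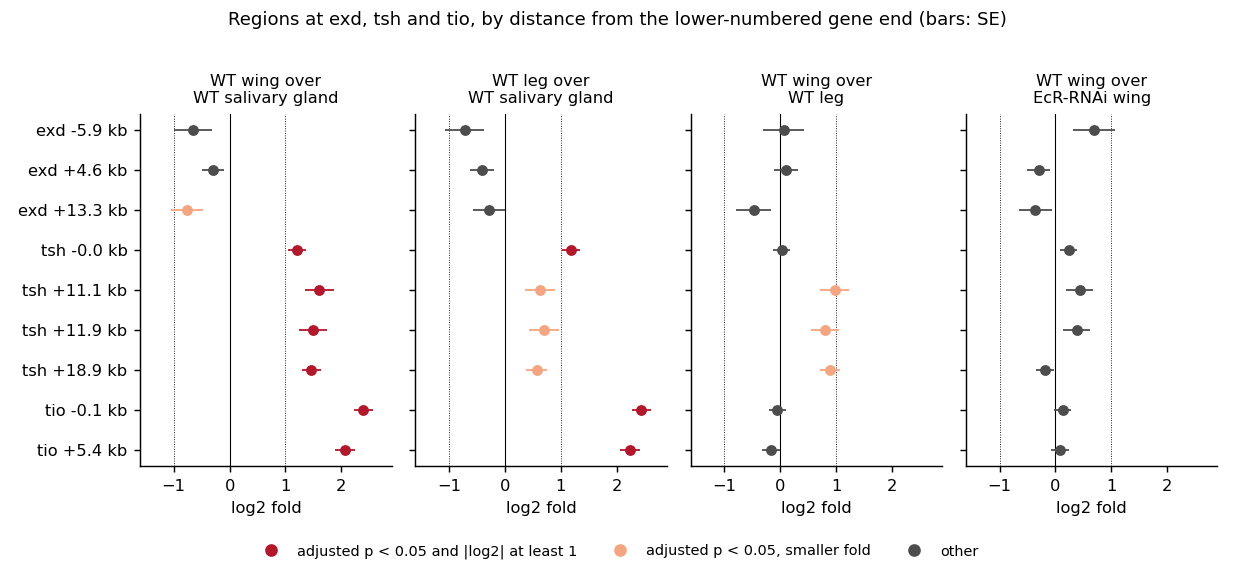
Log2 fold change with its SE at the 3 exd, 4 tsh and 2 tio regions in 4 comparisons, labelled by distance from the lower-numbered gene end; dotted lines mark a log2 fold of 1 and -1. The tsh and tio regions sit right of 0 over gland and the exd regions left of it, and the 3 outer tsh regions alone stand apart between wing and leg.

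Gland peaks were missing from both loci, as at hth. Around tsh there were 8 peaks in EcR-RNAi wing, 17 in WT wing, 10 in WT leg and 0 in gland, and around tio 5, 8, 6 and 0 in that order. Because the disc lists differ in size, a lower count in EcR-RNAi wing or leg is not read as a loss of peaks. Of genes with at least as many wing peaks in their window, 54 of 2619 for tsh and 362 of 8890 for tio had no gland peak. All 10 tsh leg peaks and all 6 tio leg peaks touched a WT wing peak, while 10 of 17 and 5 of 8 WT wing peaks touched a leg peak. As at hth, shares over whole lists were not computed, so these overlaps are description only. Some wing peaks at both genes fall outside the compared regions, 12 at tsh and 6 at tio, so the tables hold no fold for them.

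Between the windows of tsh and tio lie 14 further regions. All 14 were called higher in WT wing than in gland, with a median log2 fold of 2.18, and 13 higher in WT leg than in gland, with a median of 1.92 (authors' deposited tables). The medians at tsh were 1.48 for wing and 0.66 for leg, and at tio 2.23 and 2.34 (authors' deposited tables). Outside that interval, the 26 regions in the outer 250 kb on both sides had medians of -0.20 for wing and -0.08 for leg over gland, with 4 called toward WT wing and 4 toward gland (authors' deposited tables). The part of gland DNA copy number in the folds at tsh, tio and the interval was not tested. Between WT wing and WT leg, 2 of the 14 were called toward wing and 0 toward leg (authors' deposited table). Over all tested regions 2.04% and 2.21% are called, and a count of 2 is not read as a result about the interval. None of these 14 was called between EcR-RNAi wing and WT wing (authors' deposited DESeq2 table; 0 toward EcR-RNAi wing and 4 toward WT wing at an unadjusted p under 0.05). Over all tested regions 0.789% are called toward EcR-RNAi wing and 1.24% toward WT wing. At an unadjusted p under 0.05 the shares of all regions are 11.3% and 20.5%.

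Other genes of the proximodistal axis were read in the same window. Among 11 other proximal or hinge genes, 39 of 95 regions were called toward WT wing and 5 toward gland, and 43 toward WT leg and 3 toward gland, led in wing by bowl (log2 2.04, SE 0.15), wg (1.92, SE 0.15) and elB (1.92, SE 0.15) in the authors' deposited tables. Those genes also differed between the discs, with 5 of 94 toward WT wing and 11 toward WT leg, largest toward leg at elB (-2.12, SE 0.20), esg (-1.98, SE 0.25) and dve (-1.78, SE 0.22; authors' deposited table). The 13 distal and medial genes, which include Dll and dac, had 2 of 113 toward WT wing and 29 toward WT leg, led by bab2 (-2.01, SE 0.18), Sp1 (-1.94, SE 0.19) and btd (-1.92, SE 0.24; authors' deposited table); Sp1, btd, Lim1 and dac are also among the leg disc markers above. Hox genes, whose products bind DNA with Exd and Hth, had 0 of 93 toward WT wing and 20 toward WT leg (DESeq2; 8 and 34 at an unadjusted p under 0.05), 17 of them at Ubx (authors' deposited table). For the 4 proximal genes the same counts were 1 of 36 and 0 (authors' deposited table). Their median wing over leg log2 fold was 0.19, with 28 of the 37 regions at hth. The genes were not alike, with medians of 0.26 at hth, 0.85 at tsh, 0.07 at exd and -0.11 at tio. Medians were -0.09 for the other proximal or hinge genes, -0.36 for distal and medial genes, -0.24 for Hox genes and -0.03 over all regions (authors' deposited table).

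Over gland the Hox genes came closest to hth among these lists. They had 51 of 94 regions called toward WT wing and 3 toward gland, and 67 toward WT leg and 2 toward gland, led by abd-A (3.25, SE 0.22 for wing and 3.60, SE 0.22 for leg; authors' deposited tables). As at hth, the part of gland DNA copy number in these folds was not tested. The partners of Hth and Tsh in eye development and growth (yki, sd, ey, toy, eya, so) had 7 of 37 called toward WT wing and 3 toward gland (authors' deposited table), near the 21.1% and 12.7% of all regions. Between EcR-RNAi wing and WT wing the calls in these lists were 2 of 95 (2.11%) at other proximal genes, at wg (1.35, SE 0.31) and sob (1.00, SE 0.29), and 1 of 35 (2.86%) in the eye and growth list, at yki (1.19, SE 0.37), all higher in WT wing (authors' deposited table). Over all tested regions 1.24% are called toward WT wing, and counts this small are not read as a result about these lists. By the medians of 3 comparisons, the genes whose regions were most like those of hth, of 6712 genes with at least 5 regions, were Sfp65A (Euclidean distance 0.13 on the log2 scale), SKIP (0.27) and CG13300 (0.30). The other 3 genes had too few regions for this measure.

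**Figure D5:**
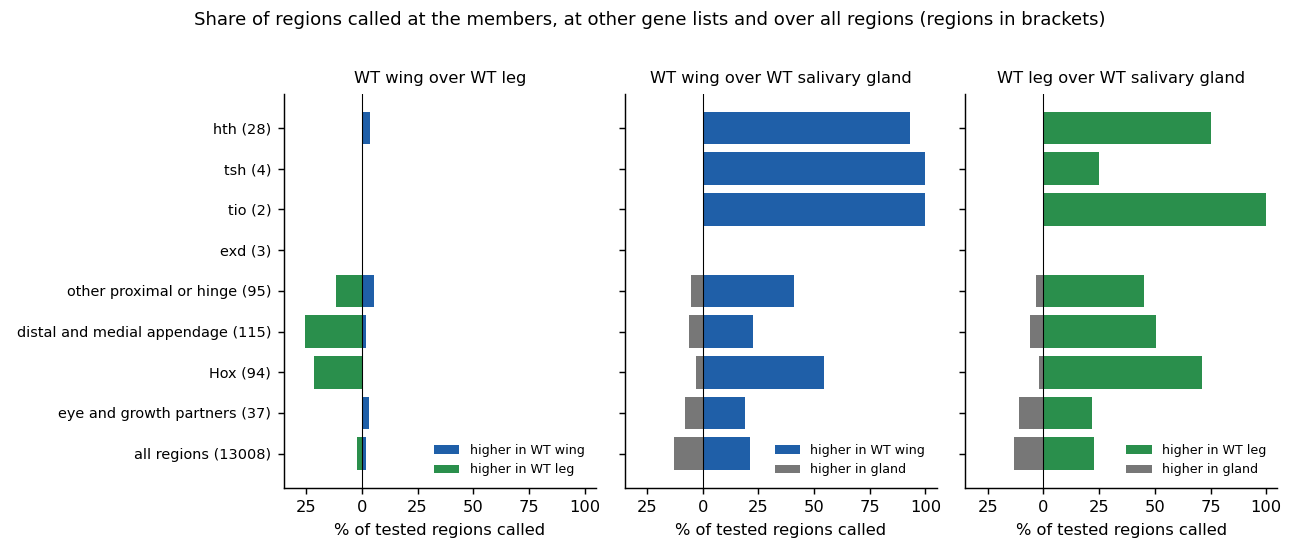
Share of tested regions called in each direction at hth, tsh, tio and exd, at 4 lists of related genes and over all regions, for WT wing over WT leg, WT wing over gland and WT leg over gland; bars right of 0 are higher in the first group. All tio and tsh regions and 26 of 28 hth regions are called higher in WT wing than gland, while calls toward WT leg appear in the distal and medial (29 of 113), Hox (20 of 93) and other proximal or hinge (11 of 94) lists.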

How the data were processed

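FAIRE-seq was made from 8 libraries in 4 groups. Per the submitters' processing notes, the tools were DESeq2, R 3.5.2, MACS2 2.1.2, Bowtie2 2.3.4.1, bedtools 2.26, Picard 2.2.4 and SAMtools 1.9, with build dm6; the sources used here give neither their order nor their settings. The authors deposited 1 peak list per group, called on merged libraries, with a score, a fold enrichment (ratio to local background) and a −log10 q per peak. The authors also deposited 4 comparison tables over 13008 shared regions with a mean normalized count (a signal scaled by them), a log2 fold change with its SE and statistic, and p-values before and after adjustment. A positive log2 fold is higher in the first group named. Region coordinates are printed as deposited and may start 1 base early, since 2880 region starts equal a 0-based peak start; peak starts are 1-based.

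Computed here, with Python 3.11.15, pandas 2.3.3 and scipy 1.17.1: members by region or peak centre within 15 kb of the RefSeq gene body; overlap of regions and peaks by at least 1 bp; group levels, as the 4 values whose mean is the mean normalized count and whose ratios are the deposited folds; and alternatives. The deposited test was not refitted, since the tables hold no counts per library, and the precision is that of the SEs (median 0.22 in each table). At members, fold over SE was 0.961 to 1.77 times the deposited statistic in wing against leg and 0.997 to 1.03 times in the other tables; folds may be moderated, and reconstructed levels are estimates. All called regions, the largest per gene and that nearest a gene end may be named; of other lists, at most 3 genes with the largest called fold. Centring and its adjusted p were tested on simulated data. No sequence was analysed here. Members and lists were chosen with earlier results of these data known. Where the deposited adjusted p was absent (681 regions between wing and leg, 465 between the wing groups) a region was left out of counts. The class of regions with a disc peak and no gland peak and the flanking regions were added after the values were seen.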

Additional observations from a re-analysis of the deposited data

Results flagged for a closer look

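The hth region 71.4 kb into the gene differed between discs in its change over gland, by the test of WT wing against WT leg in the authors' deposited table. Its log2 fold over gland was 2.42 (SE 0.28) in WT wing and 0.73 (SE 0.31) in WT leg, a difference of 1.69 (SE 0.28, adjusted p = 3.79e-07; DESeq2, authors' deposited table). It is among the less deeply covered members, with a mean normalized count of 56.8 against a median of 145 over the hth regions, and its position within hth was not tested against anything else.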

How the results depend on the processing

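The counts over gland kept their direction in each alternative run: 24 to 44 member regions were higher in WT wing and 20 to 33 higher in WT leg. These runs do not all count the same 37 regions. A window of 30 kb takes in more and the gene body alone fewer, so the ranges are not shares of 1 set. With no fold threshold, WT wing against WT leg gave 10 and 1, gland exceeded WT wing at 1, and 3 regions favoured EcR-RNAi wing and 1 favoured WT wing. A window of 30 kb gave 4 toward WT wing and 1 toward WT leg, and either centring of folds 2 higher in WT wing, 1 of them at tsh. The medians removed by centring on all regions were 0.18 and 0.17 for wing and leg over gland, and by centring on regions near gene ends -0.31 for both. Counting peaks only in the gene body left 59 in WT wing, 38 in WT leg and 1 in gland, and requiring a −log10 q of at least 10 left 33 in EcR-RNAi wing, 40 in WT wing, 34 in WT leg and 2 in gland. Of 82 member values at an adjusted p under 0.05, 5 lost that threshold when centred on all regions and 1 when centred near gene ends, with none reversed. Low counts limit the small regions, whose SEs reach 0.37. No paired analysis was possible because the comparison tables hold no values per library; leaving out a replicate was not run for that reason.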
